A study of Homo sapiens with 12 samples.

Results

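In RWPE-1 cells, 7599 of the 59741 H3K27ac peaks on chromosomes 1 to 22 shared no base with any H3K4me1 or H3K4me3 peak, which was 12.7% of them (95% Wilson interval 12.46 to 12.99). They were chosen by the overlap of the deposited H3K27ac, H3K4me1 and H3K4me3 peak lists and are called H3K4-free peaks here, as shorthand for the absence of an H3K4 peak and not for the absence of the mark. RWPE-1 is a single line of prostate epithelial cells, immortalized with HPV18, and was used below passage 20 in full keratinocyte serum-free medium with bovine pituitary extract and EGF. Each of the 5 histone marks had 2 ChIP-seq libraries and 1 pooled peak list, so no value has an error between replicates. The labels do not say whether the 2 libraries came from separate cultures. The depth is unknown, because read counts are not part of the lists. Every group below is a set of H3K27ac peaks from this line under this 1 condition, and an input and a DNase library were not analysed here. All intervals are for counting error only and treat peaks as independent.

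H3K27ac is laid down by the acetyltransferases EP300 and CREBBP and marks promoters and enhancers in use. H3K4me1, deposited at enhancers mainly by KMT2C and KMT2D, is often found where H3K27ac lies away from promoters, and H3K4me3 is the mark of promoters. An H3K27ac peak with neither is therefore outside the usual signatures of an active enhancer or promoter. H3K36me3 follows transcribing RNA polymerase over gene bodies, and H3K27me3 is the Polycomb mark, which occupies the same lysine as H3K27ac.

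The H3K4-free peaks were narrow and weak, yet a small group of them was wide and strong. Their median width was 773 bases (quartiles 607 and 1059, range 205 to 5485), and together they covered 7.01 Mb. The 35769 H3K27ac peaks that touched H3K4me1 but not H3K4me3, called H3K4me1-only peaks below, had a median of 1123 bases. Peaks that touched H3K4me3 only had a median of 1808 bases, and those that touched both marks 2683 bases. A wider peak meets other peaks more often, so width is tied to the way these groups were made and was not tested.

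The score given for each peak in the authors' lists was read as -10 times log10 of its p-value, with 50 as the lowest and 3100 as the usual ceiling. The median score was 76.4 for the H3K4-free peaks (quartiles 58.6 and 127), 144 for H3K4me1-only peaks, 544 for peaks with H3K4me3 only and 1489 for peaks with both marks. A score of 100 or more was reached by 2593 H3K4-free peaks, or 34.1% (33.1 to 35.2), against 66.5% of all autosomal H3K27ac peaks and 61.9% of H3K4me1-only peaks. Score rose with width: H3K4-free peaks under a score of 100 were 661 bases wide at the median, and those of 100 or more 1206. Score is thus tied to the groups through width and was not compared at equal width. The plot of widths and scores by H3K4 company shows the H3K4-free peaks lowest on both scales.

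**Figure D1:**
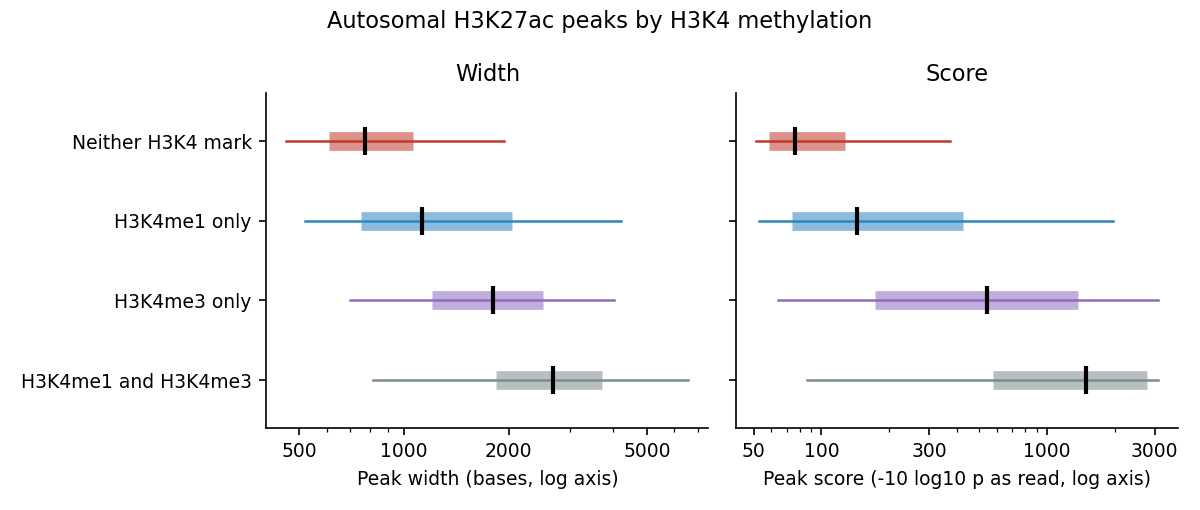
Width in bases and score (both log axes) of autosomal H3K27ac peaks in 4 groups by the H3K4 peaks they touched; the black tick is the median, the thick bar the quartiles and the thin line the 5th to 95th percentiles over peaks. The 7599 peaks with neither mark had medians of 773 bases and 76.4, the lowest of the 4 groups on both scales.

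The share of H3K27ac peaks without H3K4 peaks was lower in each wider class and at each higher score. It was 30.6% among H3K27ac peaks under 500 bases, 26.1% from 500 to under 750 bases and 13.7% from 1000 to under 1500 bases. From 2500 to under 4000 bases it was 1.31%, and 12 of the 4833 peaks of 4000 bases or more were H3K4-free. By score, the share was 6.53% at 100 or more, 2.26% at 300 or more and 0.392% at 1000 or more, where 52 of 13269 H3K27ac peaks lacked both H3K4 marks.

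Peaks just inside and just outside the rule had similar medians of width and score. The 236 H3K4-free peaks that lay within 50 bases of an H3K4 peak were 764 bases wide at the median, with 73.2 as their median score. The 174 H3K27ac peaks with 1 to 50 bases in H3K4 peaks had medians of 769 bases and 79.9. H3K36me3 touched 13 of the 236, or 5.51% (3.25 to 9.20), and 5 of the 174, or 2.87% (1.23 to 6.55). These intervals overlap, and the share was not lower just inside the rule.

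At the median, H3K4-free peaks lay closer to H3K4me1 than to H3K4me3, but the H3K4me1 list is much the longer. On the autosomes it held 170539 peaks, against 27415 for H3K4me3. The median distance to the nearest H3K4me1 peak was 1984 bases (quartiles 526 and 7443), and the median distance to the nearest H3K4me3 peak was 42.9 kb (quartiles 16.6 and 93.8 kb). H3K4me1 began within 500 bases for 24.1% of the peaks, within 1 kb for 36.1% and within 12.5 kb for 83.2%. For H3K4me3 the shares were 1.41%, 2.42% and 20.2%. No H3K4me1 peak was found within 50 kb of 244 peaks, or 3.21%. The H3K4me1-only peaks had a median of 25.4 kb to H3K4me3. From 2 to 5 kb of the centres of H3K4-free peaks, H3K4me3 covered 1.86% of the bases, and from 10 to 20 kb 1.94%. Both were above the 1.56% of the autosomes that it covered, so the peaks were not far from H3K4me3 by that measure. Around H3K4me1-only peaks the values were 3.12% and 3.09%.

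H3K4me1 stood on both sides of a minority of the H3K4-free peaks. Within 2 kb, both sides had H3K4me1 at 11.6% of the peaks, a single side at 38.5% and neither side at 49.8%. Within 5 kb the shares were 26.8%, 41.1% and 32.1%. The median score of the nearest H3K4me1 peak was 99.9, against 95.8 for all autosomal H3K4me1 peaks and 225 for H3K4me1 peaks that touched H3K27ac.

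**Figure D2:**
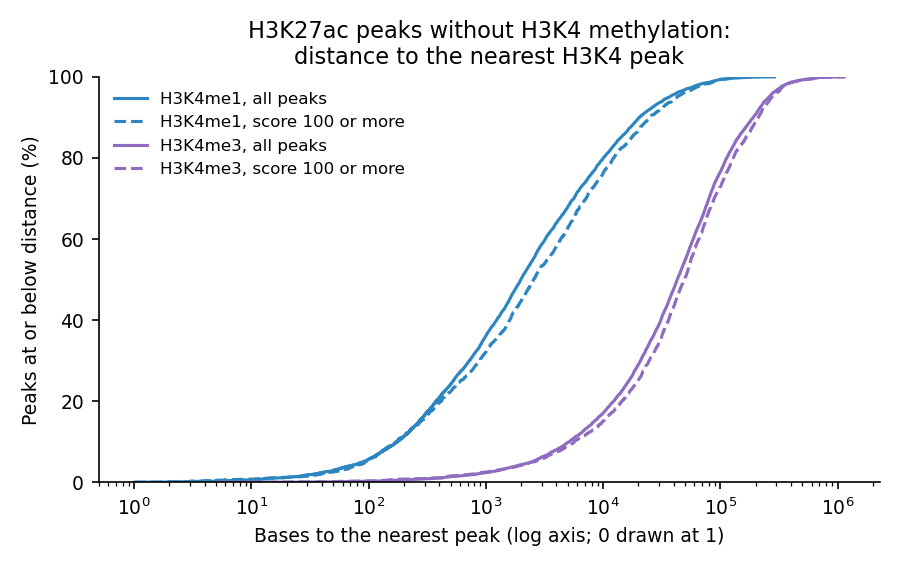
Share of the H3K4-free H3K27ac peaks (%) whose nearest H3K4me1 or H3K4me3 peak lay at or below a distance in bases (log axis), for all 7599 peaks (solid) and the 2593 of score 100 or more (dashed). The curves reach 50% at 1984 bases for H3K4me1 and 42852 bases for H3K4me3, and the stronger peaks lie slightly farther from both marks.

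The H3K4-free peaks were as often in H3K27ac clusters as other H3K27ac peaks, and most lay in clusters that held H3K4-methylated peaks. When neighbouring H3K27ac peaks no more than 12.5 kb apart were joined, 5659 of them, or 74.5% (73.5 to 75.4), fell in clusters of 2 or more peaks. The share was 74.8% for all autosomal H3K27ac peaks and 80.8% for H3K4me1-only peaks. Mixed clusters, with both H3K4-free and H3K4-methylated peaks, held 4992 or 65.7%. A further 667, or 8.78%, were in 298 clusters made up entirely of H3K4-free peaks, and 1940, or 25.5%, had no other H3K27ac peak within the gap.

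In the 3535 mixed clusters, 29.7% of the peaks were H3K4-free, and an H3K4-free peak had the highest score in 422 clusters, or 11.9%. The median score in mixed clusters was 76.4 for the H3K4-free peaks and 275 for the others. Their median widths were 782 and 1562 bases, so neither these scores nor the count of 422 is at equal width. In mixed clusters of 3 or more peaks, 38.4% of the 3921 H3K4-free peaks were at 1 end of the cluster, against 31.8% of the 10761 others. The nearest other H3K27ac peak was itself H3K4-free for 27.1% of H3K4-free peaks and for 11.8% of H3K4me1-only peaks.

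Distance to H3K4me1 is tied to these 3 kinds of place by their definition, since only a mixed cluster must hold a peak that touched H3K4 methylation. The medians, given as a description, were 1056 bases in mixed clusters, 9504 bases for peaks alone and 13991 bases in clusters of their own. A score of 100 or more was reached by 33.6% in mixed clusters, 32.0% of those alone and 43.9% in clusters of their own.

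H3K4-free peaks lay about as near to other H3K27ac peaks as H3K4me1-only peaks did. The nearest other H3K27ac peak was at a median of 1875 bases (lower quartile 262) for H3K4-free and 1861 bases (lower quartile 262) for H3K4me1-only peaks, with upper quartiles of 12888 and 8579 bases. Another H3K27ac peak began within 100 bases of 999 H3K4-free peaks, or 13.1%, and within 1 kb of 3231, or 42.5%. An H3K4-methylated H3K27ac peak was within 1 kb of 2244, or 29.5%. In a variant of the rule, H3K27ac peaks up to 1 kb apart were first joined and the whole joined region had to be free of H3K4 peaks, which left 5186 peaks or 68.2%. Of those with a score of 100 or more, 1787 were left.

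H3K36me3 touched the H3K4-free peaks less often than other H3K27ac peaks of the same width. It touched 371 of them, or 4.88% (4.42 to 5.39), against 15.5% of all autosomal H3K27ac peaks and 15.3% (14.96 to 15.7) of H3K4me1-only peaks. H3K4me1-only peaks weighted to the widths of the H3K4-free peaks gave 14.1%, a difference of -9.26 percentage points (-9.91 to -8.61). The H3K4-free peaks had the lower share on 22 of 22 chromosomes, where their shares ran from 2.33% to 12.8% and those of H3K4me1-only peaks from 8.58% to 22.7%. The shares for H3K4-free and H3K4me1-only peaks were 5.63% and 16.4% at scores under 100, and 3.43% and 14.7% at 100 or more.

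The gap in H3K36me3 was also present inside clusters, but not between the small groups just inside and just outside the rule. In mixed clusters, H3K36me3 touched 5.97% (5.35 to 6.66) of the H3K4-free and 14.9% (14.2 to 15.6) of the H3K4me1-only peaks, a difference of -7.66 points (-8.77 to -6.56) at equal width. The rule did not use H3K36me3, but the H3K4me1 and H3K36me3 lists are themselves related. H3K36me3 touched 20.1% of all autosomal H3K4me1 peaks and 21.0% of those without H3K27ac, so a low share where H3K4me1 is missing is not separate from that relation. Pooled lists gave no test over replicates.

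**Figure D3:**
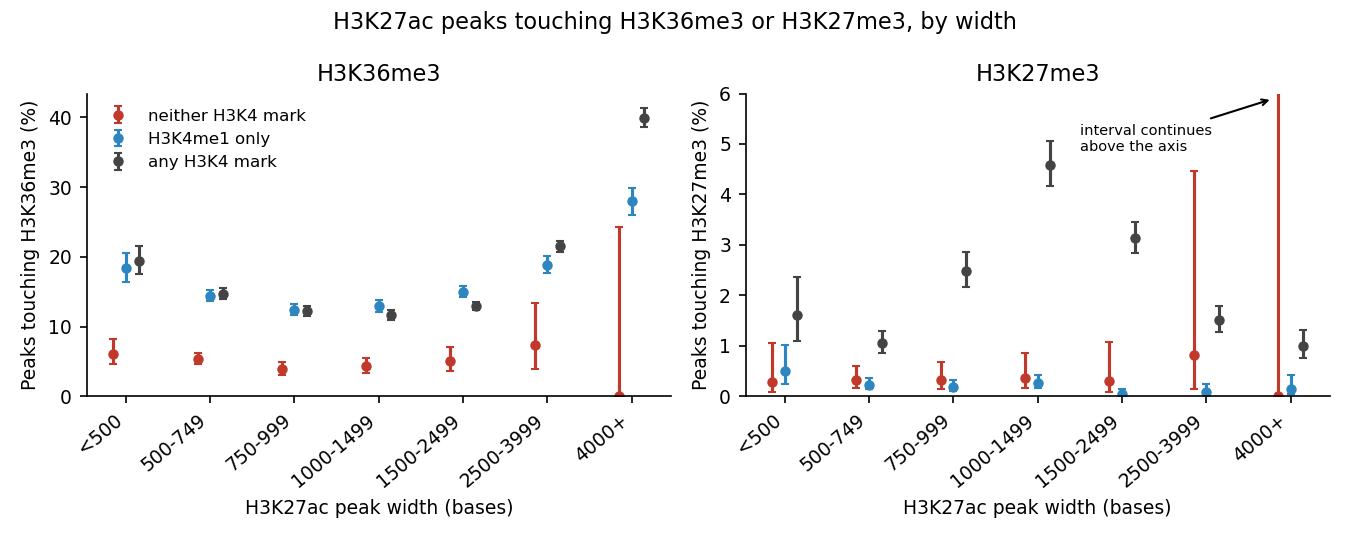
Share of H3K27ac peaks (%) that touched H3K36me3 (left) or H3K27me3 (right) by width in bases, for H3K4-free peaks (red), H3K4me1-only peaks (blue) and all peaks with either H3K4 mark (dark grey); bars are 95% Wilson intervals. H3K36me3 is lower at H3K4-free peaks in each width class, with 0 of 12 in the widest (upper bound 24.2% in both panels), and for H3K27me3 the red and blue points lie close to 0.

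H3K36me3 coverage around the H3K4-free peaks was below the level of the autosomes at their centres and near it farther out, and it was lower around the stronger peaks. In the first 0.4 kb from their centres 2.89% of the bases were covered by H3K36me3, 0.768 of its autosomal share of 3.76%. From 2 to 5 kb it covered 3.77%, and from 10 to 20 kb 4.14%. Around the H3K4-free peaks of score 100 or more the 3 values were 1.41% (0.376 of the autosomal share), 3.13% and 3.07% (0.818 of it). Around H3K4me1-only peaks they were 6.68%, 9.07% and 9.36%. H3K4me1 itself, set near 0 at the centre by the rule, covered 15.5% from 1 to 2 kb of H3K4-free peaks and 11.0% from 10 to 20 kb, against an autosomal share of 6.25%. The profiles show these levels by distance.

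**Figure D4:**
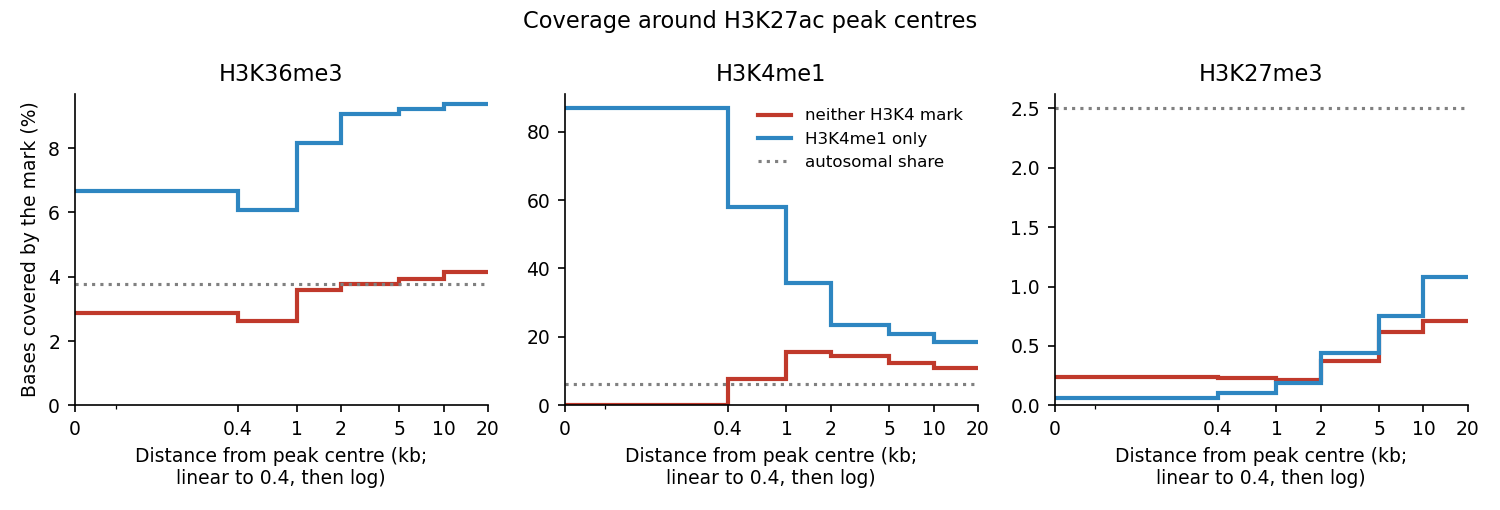
Share of bases (%) covered by H3K36me3, H3K4me1 and H3K27me3 by distance from the peak centre in kb (linear to 0.4 kb, then log), for 7599 H3K4-free (red) and 35769 H3K4me1-only peaks (blue); the dotted line is the share of the autosomes covered. Red lies near the dotted line for H3K36me3 from 1 kb outward, above it for H3K4me1 from 0.4 kb outward, and below it for H3K27me3 at each distance.

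The 371 H3K4-free peaks on H3K36me3 were weak, and at the median it covered most of their bases. Their median score was 65.6 and their median width 724 bases, and H3K36me3 covered a median of 71.5% of each, with 71 covered from end to end. The 5485 H3K4me1-only peaks on H3K36me3 were covered to a median of 49.1%, but they were wider, at a median of 1281 bases. The coverage was not compared at equal width. H3K4me1 lay closer to these 371 peaks than to the list as a whole, at a median of 1165 bases, and H3K4me3 at 22.2 kb.

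H3K27me3 was rare at H3K4-free peaks, as it was at H3K4me1-only peaks. It touched 25 H3K4-free peaks, or 0.329% (0.223 to 0.485), against 2.15% of all autosomal H3K27ac peaks. At equal width the difference from all other H3K27ac peaks was -1.95 points (-2.15 to -1.75). Against the H3K4me1-only peaks, of which 65 or 0.182% (0.143 to 0.232) touched H3K27me3, it was 0.0982 points (-0.0449 to 0.241), so the direction changed with the peaks compared and the interval of the second difference spanned 0. In mixed clusters, where 10 H3K4-free and 8 H3K4me1-only peaks touched H3K27me3, the difference from H3K4me1-only peaks was 0.143 points (0.0082 to 0.277). That interval is an approximation and is unreliable at such small counts. The Wilson intervals of the 2 shares overlapped, at 0.109 to 0.368% and 0.0417 to 0.162%. The H3K4-free share was lower on 5 chromosomes and higher on 8. H3K27ac peaks with H3K4me3 only were touched by H3K27me3 most often of the 4 groups, at 17.0%. Within 0.4 kb of the centre of H3K4-free peaks H3K27me3 covered 0.234% of the bases, 0.0937 of its autosomal share, and from 10 to 20 kb 0.711%. Around H3K4me1-only peaks the values were 0.0611% and 1.08%.

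The 25 peaks with H3K27me3 had scores of 51.8 to 268 and a median of 70.8, and 4 of them reached 100. H3K27me3 covered a median of 80.7% of each and 8 of them fully, against a median of 32.9% and 6 covered fully among the 65 H3K4me1-only peaks. The median widths were 794 and 937 bases, and this coverage too was not compared at equal width. None of the 25 touched H3K36me3, which touched only 4.88% of all H3K4-free peaks. Neither H3K36me3 nor H3K27me3 touched 7203 H3K4-free peaks, or 94.8%, and the rule itself excludes the 2 H3K4 marks. For scale, H3K36me3 touched 15.5% and H3K27me3 2.15% of all autosomal H3K27ac peaks. Among H3K4me1-only peaks these shares were 15.3% and 0.182%.

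The 2593 H3K4-free peaks of score 100 or more were wider than the rest and a little farther from H3K4 methylation. Their median width was 1206 bases against 661 for the 5006 below 100. The median distance to H3K4me1 was 2552 against 1757 bases, and that to H3K4me3 49.7 against 39.9 kb. H3K4me1-only peaks differed by score in the same directions. Their median width was 1757 bases at 100 or more and 703.5 below, and their median distance to H3K4me3 27.1 and 22.5 kb. H3K36me3 touched 89 of the 2593 H3K4-free peaks, or 3.43%, and H3K27me3 4, or 0.154%. Among H3K4me1-only peaks of score 100 or more these shares were 14.7% and 0.113%. In the clusters built from all H3K27ac peaks, 76.1% of the 2593 had a neighbour. No H3K4 peak lay within 12.5 kb of 476 of them, or within 50 kb of 81, whose highest score was 1326. At 300 or more, 559 peaks remained, 2011 bases wide at the median and 4112 bases from H3K4me1, and at 1000 or more 52 remained, 3103 bases wide at the median, with 3600 bases to H3K4me1 and 81.4 kb to H3K4me3.

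Raising the threshold in every list had a different effect, because it also removed weak H3K4me1 peaks. With scores of 100 or more throughout, 5194 H3K27ac peaks had no H3K4 peak, or 13.1% of those left. Of these, 2593 were H3K4-free in the full lists and 2601 were not, and 2383 of the latter had touched H3K4me1 only. The median score of those 2601 was 195 and their median width 1377 bases.

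Among the 52 H3K4-free peaks of score 1000 or more, 3103 bases wide at the median, the 10 strongest were 2766 to 4788 bases wide. H3K4me1 lay within 1 kb of 4 of them and at least 10 kb from 2. The first (chromosome 1, 61802229 to 61805936, hg19) spanned 3708 bases at the score ceiling of 3100. H3K4me1 ended 0.427 kb below it and began again 6.89 kb above it, H3K36me3 lay at 0.734 kb and the nearest H3K4me3 peak was at 251 kb. The second, at 4711780 to 4715769 on chromosome 10, also had a score of 3100. It was the only one of the first 10 with H3K36me3, which covered 11.7% of it, and it lay 29 bases from another H3K27ac peak in a cluster of 9, of which 4 were H3K4-free. The peak on chromosome 6 between 83117488 and 83120560 had a score of 2730, with H3K4me1 at 5.93 kb on 1 side and 47.7 kb on the other.

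A peak on chromosome 3 (106933634 to 106938030, score 2612) filled a gap in H3K4me1, which lay 522 bases below and 657 bases above it. Chromosome 14 held 1 at 85880346 to 85884653 with a score of 2545, where H3K4me1 was 2.48 kb away on 1 side and 115 kb on the other. On chromosome 5, the peak from 167241682 to 167246469 (score 2307) was 13 bases from another H3K27ac peak, whereas that from 13565196 to 13569336 (score 2287) stood alone, 15.7 kb from H3K4me1 and 86.03 kb from H3K4me3. The next, on chromosome 2 at 169847539 to 169850304, reached 2122 and was 11.2 kb from H3K4me1. The last 2 of the 10 were on chromosome 6, at 82704783 to 82708374 with H3K4me1 only 70 bases away and at 78001228 to 78004526 with H3K4me1 at 4.54 kb. H3K27me3, which touched only 0.329% of all H3K4-free peaks, touched none of the 10. Once H3K27ac peaks had been joined over 1 kb, 7 of the 10 stayed free of H3K4 peaks.

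The widest H3K4-free peaks overlapped with the strongest in 3 cases. The widest spanned 5485 bases on chromosome 21, from 36517628 to 36523112, with a score of 1468. It belonged to a cluster of 9 H3K27ac peaks, 7 of them H3K4-free, with H3K4me1 at 4.64 kb below and 8.70 kb above and H3K4me3 at 255 kb. The second widest, on chromosome 20 from 22749056 to 22754003, had the lowest score of the 10, at 587, and H3K4me1 at 365 bases. Peaks on chromosome 17 at 69627160 to 69631763 and on chromosome 13 at 75462844 to 75467159 stood alone, 26.1 and 16.4 kb from H3K4me1 and 278 and 312 kb from H3K4me3, with scores of 1013 and 935. That on chromosome 3 from 30381961 to 30386384 had H3K4me1 at 1495 bases, and that on chromosome 11 from 131938113 to 131942301 at 794 bases. A peak on chromosome 2, 208193611 to 208197807, was 39 bases from H3K4me1 and 989 bases from H3K4me3. H3K36me3 and H3K27me3 touched none of the 10 widest, too few to set against their shares of 4.88% and 0.329% over all H3K4-free peaks. After joining over 1 kb, 4 of the 10 were still H3K4-free.

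**Figure D5:**
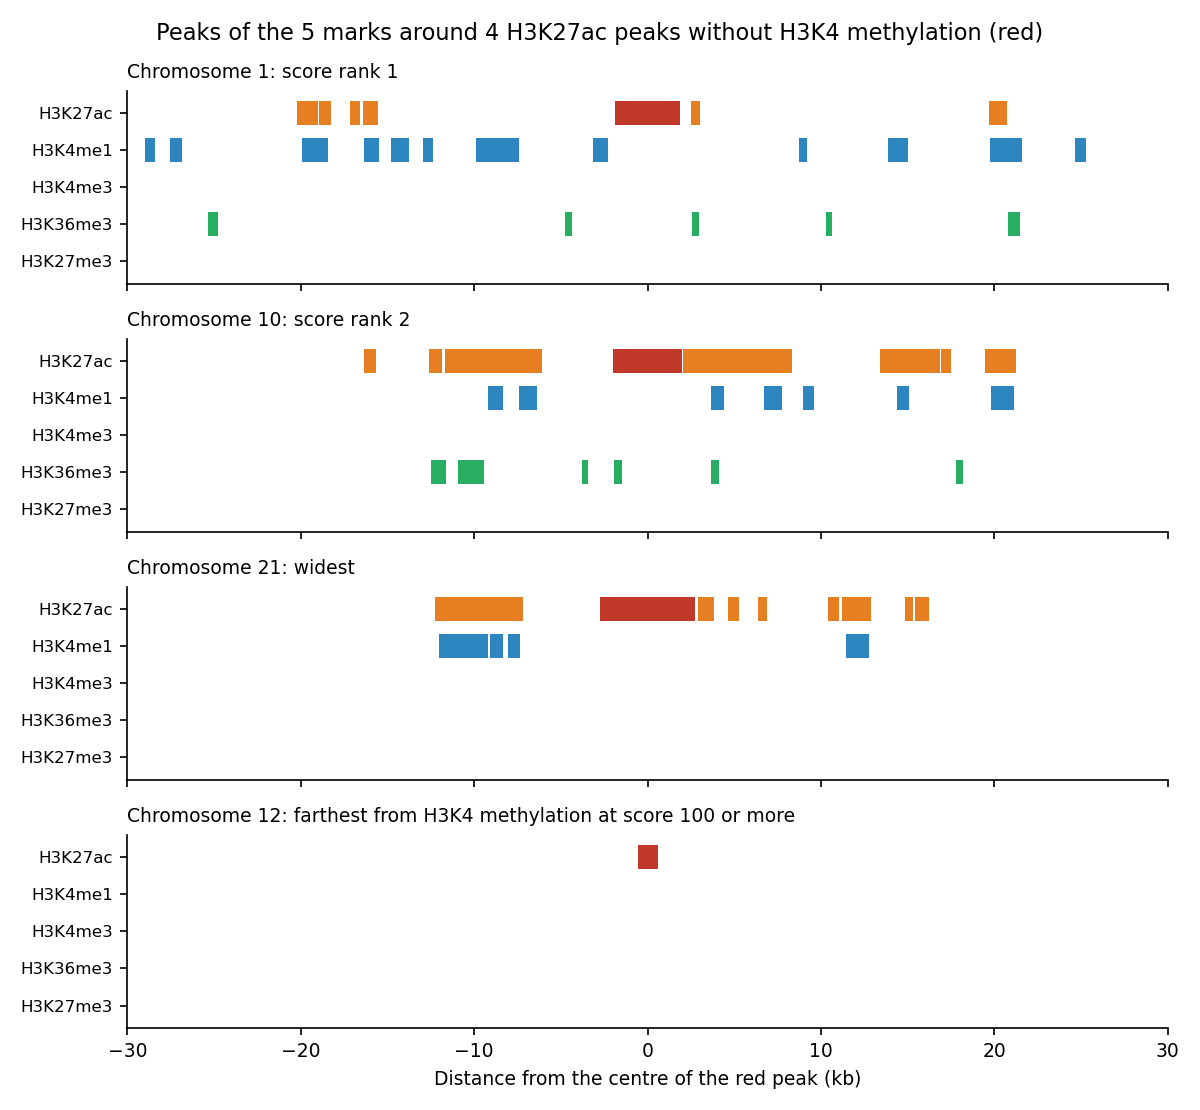
Peaks of the 5 marks within 30 kb of the centre (distance in kb) of 4 H3K4-free H3K27ac peaks, drawn in red; other H3K27ac peaks are orange. The 2 peaks of score 3100 on chromosomes 1 and 10 and the 5485-base peak on chromosome 21 have H3K4me1 (blue) beside them but not in them, and the peak on chromosome 12 has no other peak in the window.

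The most isolated peaks of score 100 or more were each alone in their H3K27ac cluster, with H3K36me3 at 55.6 kb or more. The farthest from H3K4 methylation was on chromosome 12, from 91775050 to 91776196, 185 kb from H3K4me1 and 326 kb from H3K4me3, with a score of 208. Another on that chromosome, at 60659280 to 60660142 (score 156), was 128 kb from H3K4me1 and 1353 kb from H3K36me3. Chromosome 2 held 2 of the 5, at 164204523 to 164205546 (score 101) and 141777406 to 141779025 (score 469), which were 152 and 131 kb from H3K4me1. The last was on chromosome 13 from 84023983 to 84024856, with a score of 112 and 124 kb to H3K4me1. The nearest other H3K27ac peak was 42.4 kb away for 1 of the 5 and at least 169 kb away for the other 4.

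Clusters with the most H3K4-free peaks were of unlike kinds. The first, on chromosome 6 between 26149232 and 26366264, had 13 among its 47 H3K27ac peaks, and 22 of the 47 touched H3K4me3. The H3K4-free peaks there had a median score of 79.2 against 592 for the others. Nearby on the same chromosome, at 26017128 to 26067809, 9 of 15 were H3K4-free with scores of up to 680, although H3K4me3 covered 25.4% of the region and H3K27ac 82.3%. H3K4me1 covered 6.80% there. The cluster on chromosome 1 from 183106655 to 183218484 had 9 of 23, all below a score of 100, in a region covered to 34.0% by H3K36me3, which touched 3 of the 9. On chromosome 12 at 66023151 to 66093099 it was 9 of 18 and on chromosome 20 at 52336648 to 52465804 9 of 33. No H3K4me3 peak lay in either, and H3K4me1 covered 20.5% and 39.9% of them.

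Of the clusters made up of H3K4-free peaks alone, the 5 with most peaks were 10.8 to 14.1 kb long. The median length of mixed clusters was 13.1 kb. The first 2 of the 5 had 6 peaks each, 1 on chromosome 3 (30323950 to 30334887) and 1 on chromosome 6 (169035933 to 169047951), with highest scores of 353 and 356. H3K4me1 was at least 11.2 kb from each peak of the first and 12.7 kb from each of the second. The next 3, with 4 peaks each, were all on chromosome 6, starting at 47066507, 72186659 and 138324242. The cluster at 47066507 had 1 H3K4me1 peak between its H3K27ac peaks, over 5.82% of its length, which touched none of them. H3K36me3 and H3K27me3 were not found in any of these 5 clusters. Of the 667 H3K4-free peaks in all such clusters, H3K36me3 touched 1.50% and H3K27me3 0%.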

How the data were processed

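ChIP-seq peak lists of 5 histone H3 marks in RWPE-1 cells were used, 1 list per mark, which the labels of both replicates name as their combination. Per the submitters' processing notes, the tools were CASAVA 1.8.2, MACS 1.4 and Bowtie2 and the genome build was hg19. In the sources used here, settings and controls are not given. The score deposited by the authors for each peak is not defined by a header or label. It was read as -10 times log10 of the p-value, because the lowest values are near 50, and was used only within a list.

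A single shared base counted as touching. Distances count the bases between 2 peaks. Positions are printed from 1 in hg19, without gene names or sequences. Shares have 95% Wilson intervals. Comparisons at equal width weighted the other peaks to the widths of the H3K4-free peaks in classes with edges at 500, 750, 1000, 1500, 2500 and 4000 bases. Autosomal shares of coverage took the last base of any peak on a chromosome as its length. No test was run, as each mark is 1 pooled list. The peaks, groups and named regions were chosen with earlier results of these data known. Named regions are the 10 strongest and 10 widest H3K4-free peaks, the 5 of score 100 or more farthest from H3K4 peaks, and the 5 clusters with most H3K4-free peaks of any kind and without other peaks. The comparisons with H3K4me1-only peaks and within mixed clusters and the joining over 1 kb were chosen after seeing the data. On simulated data, the code for distances had 0 mismatches to a direct search in 1000 intervals. Versions were pandas 2.3.3 and numpy 2.4.6 under Python 3.11.15, scipy 1.17.1 for the intervals, and matplotlib 3.10.9.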

Additional observations from a re-analysis of the deposited data

How the results depend on the processing

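The difference in H3K36me3 from other H3K27ac peaks at equal width (-9.08 points) was below 0 under each alternative. That in H3K27me3 (-1.95 points) was below 0 wherever all other H3K27ac peaks were compared, and above 0 in the 4 comparisons with H3K4me1-only peaks: 0.0982 for all, 0.143 in mixed clusters, 0.127 at scores under 100 and 0.0189 at 100 or more. These sets overlap, and each interval but that in mixed clusters spanned 0 (-0.0449 to 0.241, -0.0751 to 0.329 and -0.144 to 0.182). At 100 or more the H3K4-free share was lower on 10 chromosomes and higher on 3. Over all settings, 19 values stayed inside the 95% counting interval of the value reported, 40 moved out of it and 1 reversed. In this paragraph, the H3K4-free share, median width, distances to H3K4me1 and H3K4me3, share in clusters, share with H3K36me3, share with H3K27me3 and the differences in H3K36me3 and H3K27me3 follow in that order, where they moved. For H3K27ac peaks of score 100 or more they were 6.53%, 1206, 2552 and 49730 bases, 64.4% (clusters rebuilt from these peaks), 3.43%, 0.154%, -7.52 and -2.63 points. With that score in every list they were 13.1%, 1288, 6535 and 65436 bases, 64.3%, 2.77% and -4.91 points for H3K36me3. With an overlap of 50% of the smaller peak needed, the share was 14.3% (8571 peaks), the distances 1505 and 40981 bases, clusters 75.6%, H3K36me3 4.08%, and the differences -8.13 and -1.55 points. With no H3K4 peak within 1 kb they were 7.97% (4762 peaks), 783, 5110 and 49903 bases, 65.1%, 4.01% and -1.74 points for H3K27me3. With chromosome X added the share was 12.998%. Gaps of 5 and 25 kb gave 62.5% and 83.6% in clusters. After joining over 1 kb the share was 8.68%, the distances 4306 and 47255 bases, clusters 62.6% and the H3K27me3 difference -1.73 points. Against H3K4me1-only peaks the H3K27me3 difference reversed to 0.0982 points. Within mixed clusters the differences were -7.77 and -0.422 points. The causes were not tested. Replicates could not be left out or paired, since each mark is 1 pooled list, and a missing peak in a list of unknown depth does not show that the mark is absent.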

Other observations

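The density of H3K4-free peaks differed less between chromosomes than that of other H3K27ac peaks. It ran from 1.33 per Mb on chromosome 22 to 3.48 per Mb on chromosome 6, a ratio of 2.62, while that of the other H3K27ac peaks ran from 9.44 per Mb on chromosome 13 to 38.9 per Mb on chromosome 19, a ratio of 4.11. The H3K4-free share of H3K27ac peaks was lowest on chromosomes 19 (5.16%), 22 (5.24%) and 17 (6.71%) and highest on chromosomes 13 (22.2%), 4 (20.5%) and 18 (18.6%). H3K4me1, a list that the rule itself uses, had 118, 76.9 and 120 peaks per Mb on the first 3 and 34.7, 40.3 and 39.8 on the last 3. The other H3K27ac peaks, which enter the share, had 38.9, 24.0 and 34.9 per Mb on the first 3. On the last 3 they had 9.44, 11.3 and 11.6, so the 2 densities cannot be told apart here. The order of the chromosomes was not tested. Over the autosomes, 2120 of the 2620 windows of 1 Mb with an H3K27ac peak held an H3K4-free one, and the 10% of windows with most of them held 33.5% of all H3K4-free peaks.

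Chromosome X, left out above, had an H3K4-free share of 24.4% (22.3 to 26.7), 355 of 1454 H3K27ac peaks. That was above the share on each of the 22 autosomes. The median width there was 713 bases and the median score 78.7. H3K36me3 touched 7 of the 355 and H3K27me3 none. The shares over all 1454 H3K27ac peaks of chromosome X were not computed, so these counts cannot be called low or high for it.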
